A study of Homo sapiens with 2 samples.

Results

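The genes described here encode 4 functional units of the replication fork: the sliding clamp (PCNA), the clamp loader (RFC2, RFC3, RFC4 and RFC5), the single-stranded DNA binding complex replication protein A (RPA1, RPA2 and RPA3), and the enzymes that finish Okazaki fragments (FEN1 and LIG1). Probe sets were taken when the platform annotation gave them exactly 1 of these gene symbols, which yielded 29 of the 44988 probe sets with 1 symbol and all 10 genes of the 18132 that were measured. No probe set with several symbols named any of the 10 genes. RNA was pulled down with an antibody against the RNA-binding protein QKI and hybridised to PrimeView arrays. It came from SW480 cells (an established human line of colorectal cancer). There was 1 array of cells transfected with siRNA against the long noncoding RNA NONHSAT136151 (siLnc) and 1 array of cells transfected with negative control siRNA (siNC), both with 100 pmol siRNA and collected 48 h after transfection. The sources used here do not say which siRNA against NONHSAT136151 was used, and the study's list gives 1 of the 2 such siRNAs the same sequence as the control. The comparison asks how silencing NONHSAT136151 altered the amount of these mRNAs recovered with QKI. With 1 array per condition there was no replicate check and no p-value, and the number of arrays limited the precision of every value.

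PCNA forms a ring that encircles DNA and tethers polymerases and other factors to it. The clamp loader, a complex of RFC1 with RFC2 to RFC5, opens the ring and places it at primer ends by using ATP. On the lagging strand, which is copied in short Okazaki fragments, RPA coats the exposed single strand, the flap endonuclease FEN1 removes the displaced primer end, and DNA ligase 1 (LIG1) seals the remaining nick. Most of these genes belong to the set that proliferating cells transcribe under E2F control. QKI acts on mRNAs at other levels, as a regulator of splicing, stability and translation.

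RefSeq promoter windows (GRCh38.p14, 250 bases before to 50 bases after a start site) were searched on both strands for the letters GCGGGAA. E2F sites often contain these letters, which were chosen after the values of these genes were known. Windows were matched for 8 of the 10 genes, and 5 of the 8 held the letters in a window. Over all 27305 genes with a window the share was 7.82%, and over all 35116 windows it was 6.55%. A match describes the letters only, and the arrays did not measure promoters. The sequences are given 5′ to 3′ in the direction of the gene, with the matched letters, or their reverse complement TTCCCGC, in capitals. The distance stated for each is from the start site to the first matched base. RFC4 held a match on either side of its start, and the one before it is shown.
PCNA, 59 bases before the start, chr20:5126653-5126703, minus strand: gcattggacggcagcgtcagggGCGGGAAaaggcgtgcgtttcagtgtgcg
RFC2, 5 bases before the start, chr7:74254376-74254426, minus strand: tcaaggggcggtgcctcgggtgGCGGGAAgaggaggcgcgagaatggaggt
RFC3, 55 bases before the start, chr13:33818072-33818122, plus strand: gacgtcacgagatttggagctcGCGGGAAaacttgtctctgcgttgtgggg
RFC4, 10 bases before the start, chr3:186806464-186806514, minus strand: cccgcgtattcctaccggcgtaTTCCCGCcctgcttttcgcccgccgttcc
LIG1, 113 bases before the start, chr19:48170429-48170479, minus strand: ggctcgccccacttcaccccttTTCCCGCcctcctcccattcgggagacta
The windows of RFC5, RPA1 and FEN1 did not hold these letters, and neither did a second window of PCNA. RPA2 and RPA3 had no matched window.

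Values are the deposited log2 signals, and each difference is siLnc minus siNC on the log2 scale, where 1 means 2-fold. A gene's value is the mean over its probe sets, and the SD given with it is the spread between probe sets of 1 gene on the same pair of arrays, not between replicates. A background signal was set at the 95th percentile of 98 probe sets of 43 genes of cell types that are absent from the culture, such as photoreceptors, heart muscle and neurons. It was 3.72 on the siLnc array, 3.94 on the siNC array and 3.83 for the mean of both. Below it, a difference cannot be read as a difference in mRNA.

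The arrays had similar overall signals, with medians of 3.29 in siLnc and 3.32 in siNC, and after sorting they were never more than 0.19 apart. The 18 probe sets of the spiked control transcripts all had lower signals in siLnc, with differences from -1.30 to -0.20, and their part in the values below was not tested. Of the colon epithelium markers, EPCAM (9.68 in siLnc and 9.86 in siNC) and KRT18 (11.72 in siLnc and 11.62 in siNC) were far above background, while CDH1 (3.88 in siLnc and 3.84 in siNC) lay near it and VIL1 below it. Markers of fibroblasts and endothelium were below background on both arrays, in all 6 and all 4 genes. Of the 5 leukocyte markers measured, 1 was read at or above background, CD68, with 4.545 in siLnc and 4.69 in siNC. Of 14 gland and airway lining markers, a list partly drawn from these arrays, 11 were at least 2-fold higher in siLnc. By the same rule 0.651% of all genes were higher. The differences of all 14 ran from -0.29 (HTN1) to 6.83 (BPIFA1). Their signals ran from 1.29 to 10.09 in siLnc and from 1.55 to 5.64 in siNC. Of the 2 red cell markers measured, HBB had 5.67 in siLnc and 2.99 in siNC, a difference of 2.69, and ALAS2 had 3.02 in siLnc and 3.47 in siNC, a difference of -0.44. The part of these markers was not tested either. QKI mRNA averaged 6.10 in siLnc and 6.66 in siNC, a mean difference of -0.565 over 6 probe sets that ranged from -1.26 to 0.

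In the precipitate of siLnc cells, all 10 genes had a mean difference above 0, and the median over the 10 genes was 0.46 (range 0.10 to 1.10), against a median of -0.06 over all genes. Above 0 lay 39.2% of all genes. FEN1 and RPA2 were at least 2-fold higher, which was 2 of 10 genes, where 0.651% of all genes were called higher by the same rule. None of the 10 was 2-fold lower, against 0.121% of all genes. By probe set, 4 of 29 were at least 2-fold higher (1 of RPA1, 1 of RPA2 and 2 of FEN1), against 1.53% of all probe sets with 1 symbol. Without probe sets named _s_at or _x_at, 2 of 22 were, against 1.56% of all such probe sets. At 1.5-fold 12 of 29 were higher, against 7.34%, and at 3-fold 1 of 29, against 0.12%. The RNA quality probe sets moved with the group as well. For GAPDH the 5′ probe set had 10.92 in siLnc and 10.45 in siNC (0.47), the middle one differed by 0.39, and the 3′ one had 11.91 in siLnc and 11.72 in siNC (0.19). For actin the differences were 0.34 at the 5′ end, 0.17 in the middle and 0.05 at the 3′ end. The GAPDH differences at the 5′ end and in the middle are thus close in size to the median of the 10 genes, and the part of RNA quality in that median was not tested. After cyclic loess or quantile normalization between the arrays, FEN1 and RPA2 were just under 2-fold, and 0 of the 10 genes were called, against 0.469% of all genes after cyclic loess and 0.375% after quantile normalization. In RNA from a whole culture, more cells in which a gene is active and more mRNA per cell cannot be told apart. The input RNA was not analysed here, so more mRNA in the cells and more mRNA recovered per QKI cannot be told apart either. Neither array was of an IgG precipitate, so RNA that came down without binding QKI cannot be told apart from QKI-bound RNA.

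**Figure D1:**
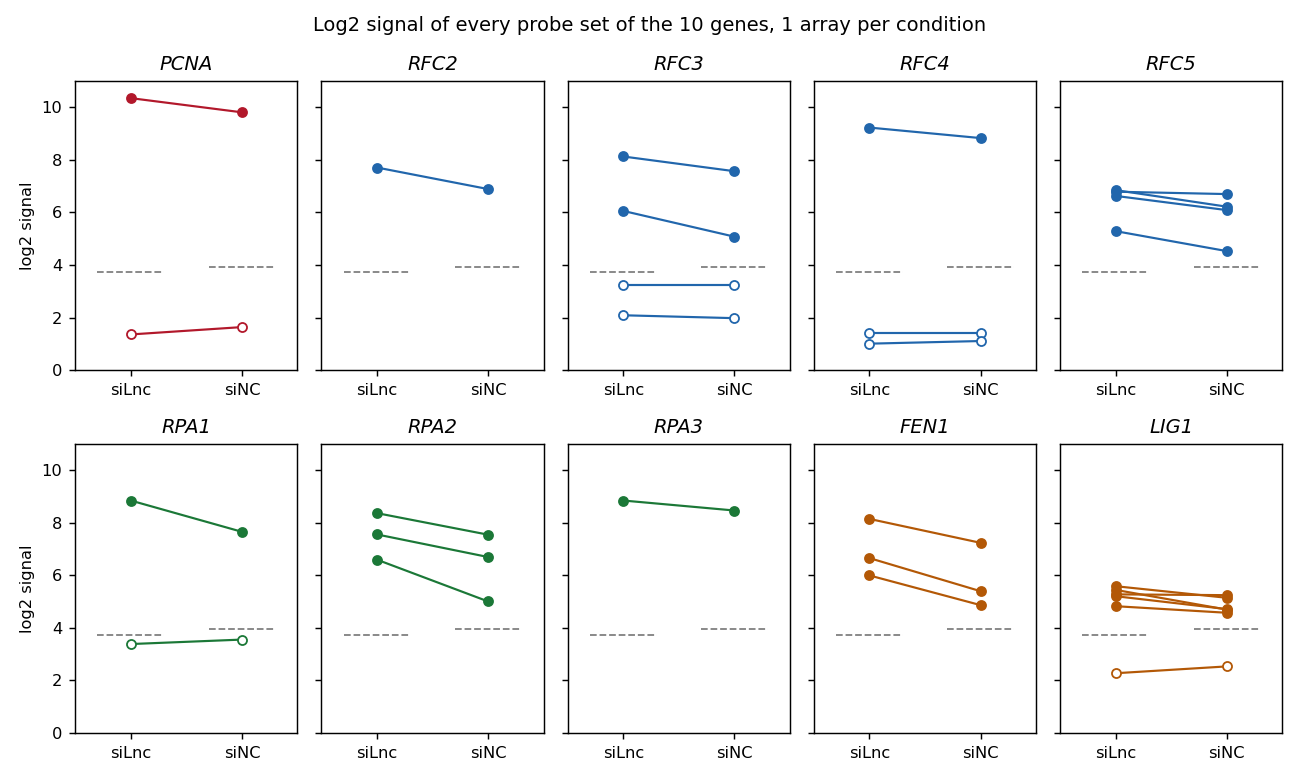
Log2 signal (y axis) of every probe set of the 10 genes on the siLnc and siNC arrays (x axis), with lines joining 1 probe set. Filled points have a mean signal at or above background and open points below it, and dashed lines mark the background of each array (3.72 in siLnc and 3.94 in siNC). All 22 filled probe sets are higher in siLnc, and the 7 open ones are not uniformly so.

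The probe sets fell into 2 sets by signal. Of the 29, 22 had a mean signal at or above background, and all 22 were higher in siLnc, with differences from 0.03 to 1.59 and a median of 0.69. The other 7 lay below background, with differences from -0.28 to 0.11 and a median of -0.10. These 7 belong to PCNA, RFC3, RFC4, RPA1 and LIG1, whose means therefore include probe sets that read no clear signal. Over all probe sets with 1 symbol the medians were 0.10 at or above background and -0.11 below it. When the means were taken over probe sets at or above background, the median of the 10 genes was 0.66, against 0.07 over the 10043 genes read there. RPA1 then joined FEN1 and RPA2, so that 3 of 10 genes were at least 2-fold higher, against 1.67% of the 10043 genes. Of those genes, 56.3% lay above 0. Of the 8 probe sets designed on a RefSeq mRNA record, 1 (of RPA1) lay below background, while 6 of the 7 dim probe sets were designed on other GenBank records.

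PCNA, the clamp itself, was read by 2 probe sets of very different signal. The bright one had a log2 signal of 10.35 in siLnc and 9.81 in siNC, a difference of 0.54 (1.45-fold). The other had 1.36 in siLnc and 1.64 in siNC, far below background on both arrays. The mean difference of 0.13 is pulled down by this second probe set, and 73.4% of all genes lay below it. The bright probe set was the only one of PCNA above background, and it did not reach 2-fold.

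The loader subunits RFC2 to RFC5 were each above 0 in their mean, and none reached 2-fold. RFC2, a small AAA+ subunit of the loader like the other 3, had 7.71 in siLnc and 6.89 in siNC, a difference of 0.82 (1.77-fold). This was the largest mean difference of the 4 and came from 1 probe set, whose name ending (_x_at) marks probes that may match other transcripts. RFC3 was read by 4 probe sets. Its brightest had 8.13 in siLnc and 7.57 in siNC (0.56), and the next had 6.06 in siLnc and 5.08 in siNC (0.98, just below 2-fold). Its other probe sets, at 3.25 on both arrays and at 2.09 in siLnc and 1.98 in siNC, lay below background. The mean difference of RFC3 was 0.41 ± 0.45 (SD over 4 probe sets), and 0.77 without the dim pair.

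RFC4 had 9.23 in siLnc and 8.83 in siNC in its bright probe set, a difference of 0.40. Its 2 dim probe sets had 1.40 on both arrays, and 1.01 in siLnc and 1.11 in siNC, and brought its mean to 0.10 ± 0.26 (SD over 3 probe sets). RFC5 had all 4 of its probe sets above background, and all 4 were higher in siLnc. They had 6.85, 6.63, 5.29 and 6.79 in siLnc and, in the same order, 6.22, 6.09, 4.53 and 6.70 in siNC. The first 3 differed by 0.63, 0.54 and 0.76, and the last, the brightest by mean signal, by 0.09. The mean difference of 0.51 ± 0.29 (SD over 4 probe sets) was thus shared by 3 of its 4 probe sets, without the brightest. In all, 9 of the 12 loader probe sets were above 0. Over all genes 39.2% of the means were above 0, and 56.3% when taken over probe sets at or above background. No such share was taken over all probe sets.

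The 3 subunits of RPA gave unequal differences. RPA2, the middle subunit, whose N-terminus is phosphorylated after replication stress, was higher in siLnc in each of its 3 probe sets. These had 8.36, 7.55 and 6.59 in siLnc, and 7.54, 6.69 and 5.0 in siNC in the same order, with differences of 0.82, 0.86 and 1.59. The mean was 1.09 ± 0.43 (SD over 3 probe sets), or 2.13-fold, and 1 of its 3 probe sets reached 2-fold by itself. By size of the mean difference RPA2 ranked 67th of 18132 genes.

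RPA1, the large subunit with the main DNA-binding domains, was read by 2 probe sets that disagreed. The bright one had 8.84 in siLnc and 7.65 in siNC, a difference of 1.19 (2.28-fold), and the other had 3.38 in siLnc and 3.55 in siNC, below background on both arrays. The mean of 0.51 ± 0.96 (SD over 2 probe sets) describes neither of them. The name of the bright probe set ends in _s_at, which marks probes shared by several transcripts, and without such probe sets RPA1 had -0.17. RPA3, the small subunit, had 8.84 in siLnc and 8.46 in siNC in its only probe set, a difference of 0.38. In all, 5 of the 6 RPA probe sets were above 0. Of all gene means 39.2% were above 0, and 56.3% when taken over probe sets at or above background. No such share was taken over all probe sets.

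FEN1 had the largest mean difference of the 10 genes. Its 3 probe sets had 8.14, 6.65 and 5.99 in siLnc, and 7.23, 5.39 and 4.86 in siNC in the same order. They differed by 0.91, 1.26 and 1.13, all in one direction and all above background, so the mean of 1.10 ± 0.18 (SD over 3 probe sets), or 2.14-fold, had the smallest spread among the 8 genes with several probe sets. FEN1 ranked 63rd of 18132 genes. The brightest of its probe sets was the one below 2-fold. The names of the brightest and the dimmest end in _s_at, which marks probes shared by several transcripts. Without them FEN1 rested on the remaining probe set, at 1.26.

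LIG1, which joins the fragments that FEN1 has trimmed, was read by 6 probe sets. Of these, 5 lay between 4.82 and 5.58 in siLnc and between 4.57 and 5.24 in siNC. Their differences were 0.44, 0.03, 0.75, 0.49 and 0.25 from the brightest to the dimmest, all above 0 and none at 2-fold. The last probe set had 2.27 in siLnc and 2.53 in siNC, below background. The mean was 0.28 ± 0.36 (SD over 6 probe sets), and 0.39 over the 5 above background, so LIG1 lay well below FEN1 in either reading. No test of that difference was possible with 1 array per condition.

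**Figure D2:**
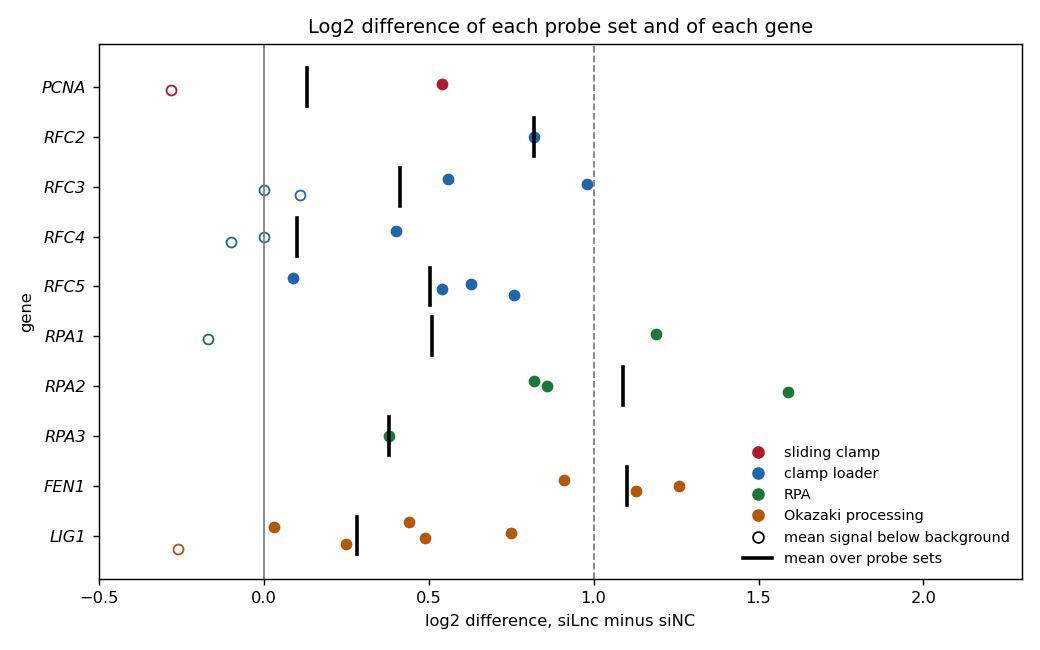
Log2 difference, siLnc minus siNC (x axis), of each probe set (points) of the 10 genes (y axis), with the mean of each gene as a black bar, 0 as a solid line and 2-fold as a dashed line. FEN1 and RPA2 have means beyond 2-fold, and open points, with mean signals below background, lie between -0.28 and 0.11.

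Differences on these arrays depended on signal, so the 29 probe sets were also set beside all probe sets in the same band of mean signal. The median difference of all probe sets was -0.13 between signals of 2 and 3 and 0.16 between 6 and 7. Of the 29, 23 lay above the median of their own band, and 12 lay above the 90th percentile of their band. These 12 were among the 22 at or above background. Between signals of 5 and 6, where 3.29% of 4800 probe sets reached 2-fold upward, the 6 probe sets of the 10 genes had a median difference of 0.86, and the highest was RPA2 at 1.59. Between 7 and 8 the median of 5 probe sets was 0.82, and that of all 2492 was 0.15. In the brightest band used, which began at 9 and in which 3 of 895 probe sets were 2-fold higher, PCNA had 0.54 and RFC4 0.40, against a 90th percentile of 0.49. The same log2 difference was thus less common among bright probe sets than among those of middle signal.

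**Figure D3:**
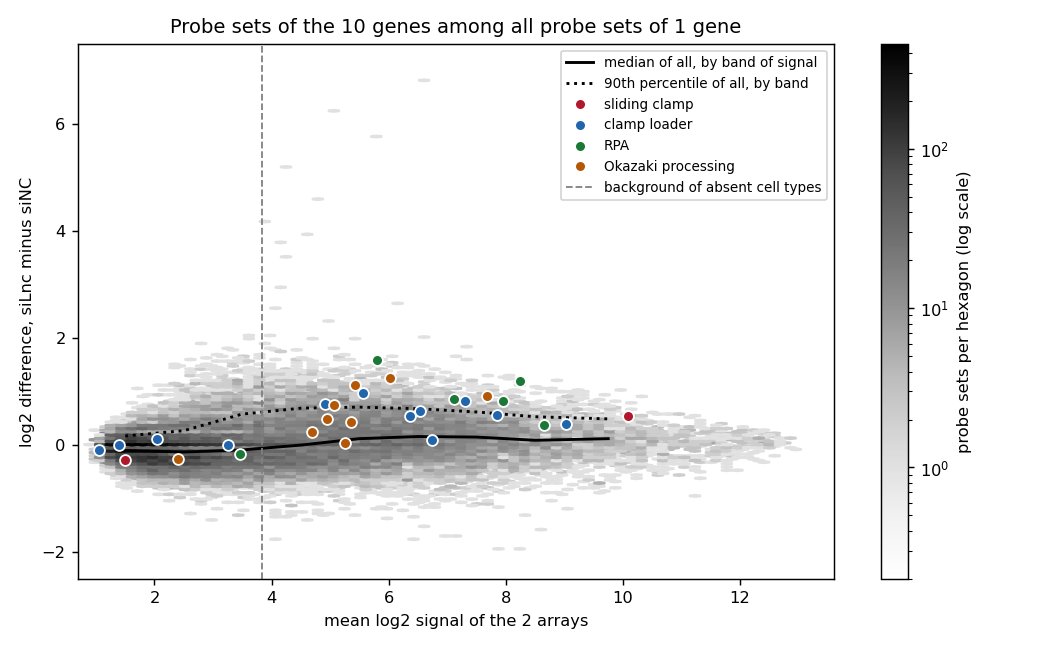
Log2 difference, siLnc minus siNC (y axis), against the mean log2 signal of both arrays (x axis) for the 44988 probe sets with 1 symbol (grey, count on a log scale) and for the 29 probe sets of the 10 genes (coloured by role). Solid and dotted lines give the median and the 90th percentile of all probe sets by band of signal, the dashed line marks background (3.83), and 12 coloured points lie above the 90th percentile of their band.

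The genes that work beside these 10 were read from lists chosen for their roles, with earlier results of these arrays known. Of all genes, 0.651% were at least 2-fold higher, 0.121% were 2-fold lower and 39.2% lay above 0. RFC1, the large subunit of the same loader, named for its role, had 4.82 in siLnc and 4.60 in siNC, a mean difference of 0.23 over 3 probe sets that ranged from -0.18 to 0.78. Together with the alternative loaders that share RFC2 to RFC5, 0 of 6 genes were at least 2-fold higher or lower, 4 lay above 0, and the median was 0.37, or 0.43 over the 5 genes with probe sets at or above background. The largest of these were ATAD5, of the loader that removes PCNA from DNA (0.80, with 2.73 in siLnc and 1.93 in siNC, below background), and DSCC1, of the CTF18 loader (0.60, with 5.59 in siLnc and 4.99 in siNC). For the 9-1-1 checkpoint clamp, a ring related to PCNA, 0 of 4 genes reached 2-fold in either direction and the median was 0.07, with HUS1 at 0.64 and RAD1 at 0.30. The other 2 genes had mean signals below background, and over probe sets at or above it the median of HUS1 and RAD1 was 0.38. Of 8 further nucleases and ligases of the lagging strand and of DNA repair, 0 reached 2-fold and the median was 0.15, or 0.17 over the 6 genes read at or above background. EXO1, an exonuclease, had 0.94 (4.99 in siLnc and 4.05 in siNC), and RNASEH2A, the catalytic subunit of the RNase H2 that cuts RNA from DNA, had 0.61 (6.88 in siLnc and 6.28 in siNC).

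Set side by side with the other parts of the fork, the median of the 10 genes lay between those of the helicase and the polymerases. The MCM helicase genes had a median of 0.91 over 6 genes, all above 0, of which MCM4 (1.31) and MCM2 (1.06) were at least 2-fold higher. The replicative polymerases and primase had a median of 0.27 over 12 genes, of which 8 lay above 0. POLE2, a subunit of polymerase epsilon, had 1.65 and was the 1 member of that list at 2-fold, and POLA2, of polymerase alpha, had 0.95. Over probe sets at or above background the medians were 1.06 for 5 MCM genes and 0.39 for 12 polymerase and primase genes, against 0.66 for the 10 genes. The order of these medians was not tested, because each rests on the same pair of arrays. Of all genes, 0.651% were at least 2-fold higher and 39.2% lay above 0. Among genes read at or above background these shares were 1.67% and 56.3%.

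**Figure D4:**
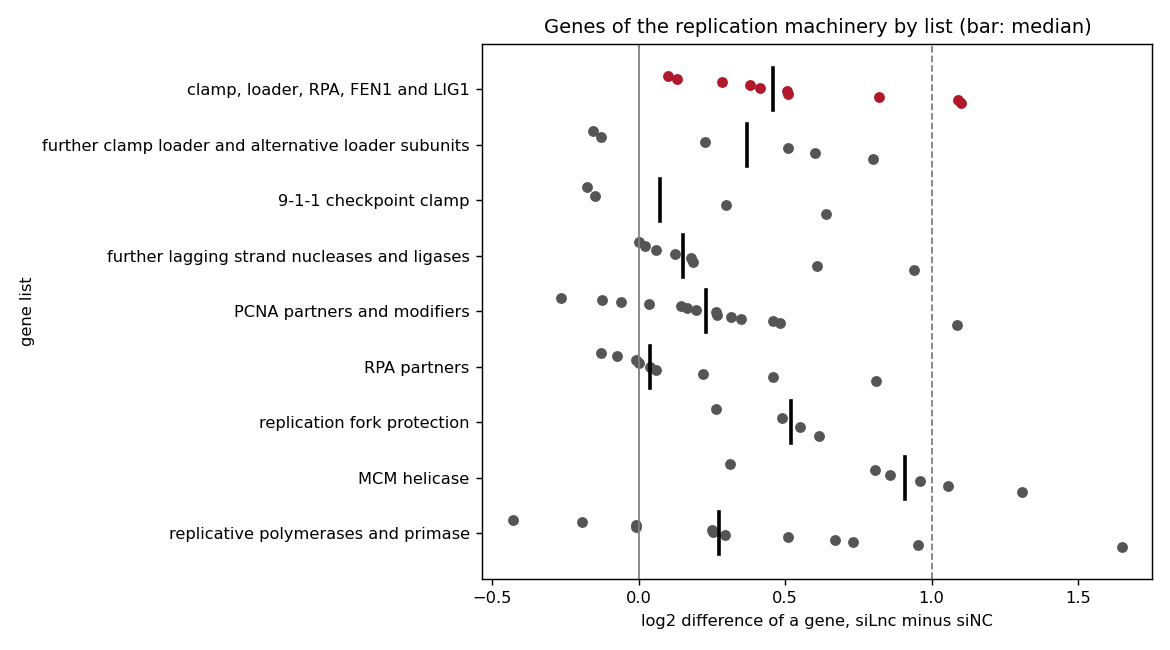
Log2 difference of each gene, siLnc minus siNC (x axis), in the 10 genes described here (red) and in lists of their partners (grey, y axis), with the median of each list as a black bar, 0 as a solid line and 2-fold as a dashed line. The 10 genes have a median of 0.46, the MCM genes 0.91, and the polymerases and primase 0.27.

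Over the alternatives tried, the median of the 10 genes ran from 0.36 to 0.66. FEN1 ran from 0.91 to 1.26 and RPA2 from 0.82 to 1.23, on either side of 2-fold, and RPA1 from -0.17 to 1.19. RFC2 ran from 0.67 to 0.82 and RPA3 from 0.25 to 0.38, each resting on 1 probe set. RFC4 ran from 0.00 to 0.40, PCNA from 0.12 to 0.54 and LIG1 from 0.19 to 0.44. The ranges were 0.335 to 0.77 for RFC3 and 0.09 to 0.64 for RFC5.

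**Figure D5:**
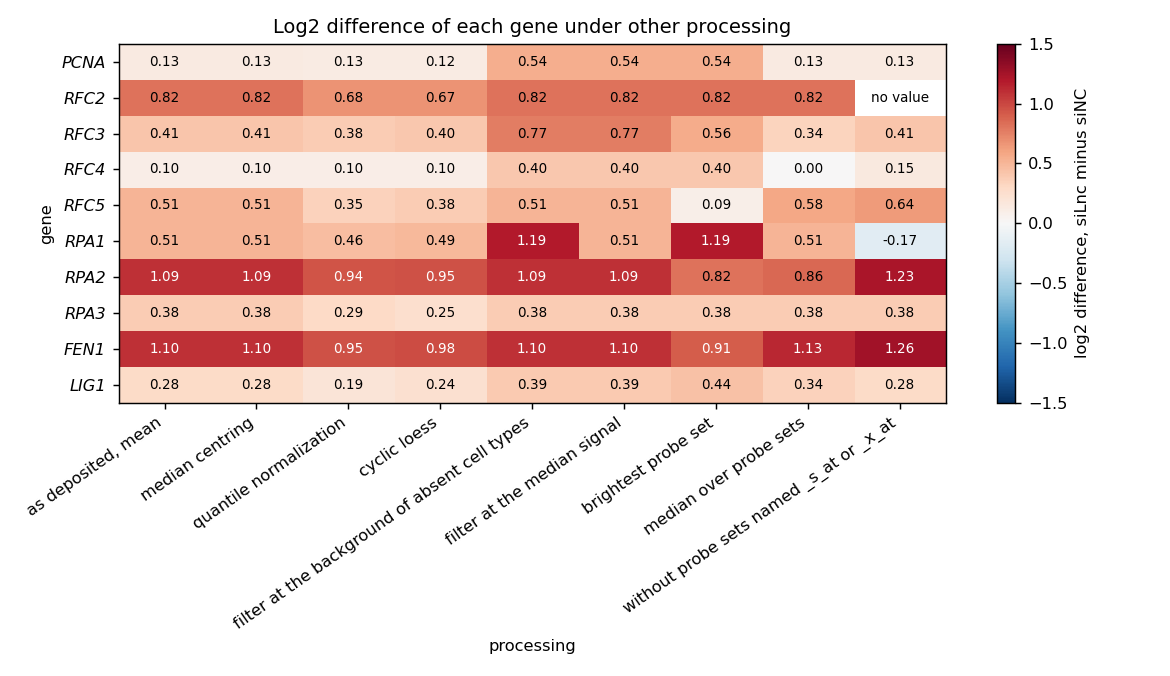
Log2 difference, siLnc minus siNC (colour and printed value), of each of the 10 genes (y axis) as deposited and under 8 other ways of processing (x axis). FEN1 and RPA2 stay between 0.82 and 1.26 in every column, while RPA1 runs from -0.17 to 1.19 with the probe sets used.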

How the data were processed

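RNA co-precipitated with QKI from SW480 cells was measured on 2 PrimeView arrays, 1 siLnc and 1 siNC. The values are log2 signals as the authors deposited them, given for each probe set with 2 decimals, and their log2 scale was inferred from their range. A company ran the arrays. The submitters' processing notes list GCOS. How background was corrected, probes were summarised and arrays were normalized is not stated there or in the methods, so a shift of all mRNAs together may have been removed. Of 49371 probe sets, 79 controls were left out. Gene symbols came from the platform annotation, and all 29 of the 10 genes kept their symbol in RefSeq. The threshold of 2-fold is the one the methods state for another array of the study. Named genes were the 10, QKI, and of each further list other than cell type markers up to 4 genes past 2-fold, largest first, or the 2 largest where fewer than 2 reached it. RFC1 was named for its role, and the cell type markers named were chosen after their values were seen. The 10 genes, the lists and the alternatives were chosen with earlier results of these data known. The code that averages probe sets and counts calls was tested on simulated data. Tools were Python 3.11.15, numpy 2.4.6, pandas 2.3.3, scipy 1.17.1, matplotlib 3.10.9, and limma 3.58.1 in R 4.3.3.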

Additional observations from a re-analysis of the deposited data

How the results depend on the processing

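No paired analysis was possible because there was 1 array per condition, and no alternative carries a test. The median of the 10 genes ran from 0.36 to 0.66 over the 8 alternatives to which it applied, and 0 of the 10 genes were 2-fold lower under any of the 10. The count of genes at least 2-fold higher, 2 as reported, was 0 after quantile normalization, 0 after cyclic loess, 0 at 3-fold, and 1 each with the brightest probe set and with the median over probe sets. Over all 18132 genes the counts in these settings were 68, 85, 15, 201 and 129 in the same order, against 118 as deposited. FEN1 had 0.95 after quantile normalization, 0.98 after cyclic loess and 0.91 in its brightest probe set. RPA2 had 0.94, 0.95 and 0.82 in these settings and 0.86 as the median over probe sets. RPA1 had 1.19 with the filter at background or the brightest probe set and -0.17 without probe sets named _s_at or _x_at, a setting that left RFC2 without a value. PCNA had 0.54 with either filter on low signal and in its brightest probe set, RFC3 0.77 with either filter, and RFC5 0.09 in its brightest probe set. The count of probe sets at least 2-fold higher, 4 of 29, was 2 without names in _s_at or _x_at, 12 at 1.5-fold and 1 at 3-fold. Over all genes, 118 were higher and 22 lower. Quantile normalization gave 68 higher and 35 lower, the brightest probe set 201 and 49, 1.5-fold 773 and 317, 3-fold 15 and 1, and the filter at the median signal 179 higher. The cause of these shifts was not tested. Median centring changed no value, since the shift was 0.00.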

Other observations

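Proteins that bind or modify PCNA had a median log2 difference of 0.23 over 14 genes, of which 11 lay above 0. Over the 12 genes with probe sets at or above background the median was 0.42. Of all genes, 39.2% lay above 0 and 0.651% were at least 2-fold higher. RAD18, the ligase that ubiquitinates PCNA at stalled forks, was the 1 member at least 2-fold higher, with 4.28 in siLnc and 3.19 in siNC (1.08). It was read by 2 probe sets, at 1.42 and 0.75, and only the first had a mean signal at or above background. PCLAF, a PCNA-associated factor of proliferating cells, had 8.34 in siLnc and 7.86 in siNC (0.48 over 5 probe sets, all above 0).

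Of 9 partners of RPA, 0 were at least 2-fold higher or lower, 5 lay above 0 and the median was 0.04. Over the 5 genes read at or above background the median was also 0.04. Above 0 lay 39.2% of all genes. ETAA1, which activates the kinase ATR on RPA-coated DNA, had 4.97 in siLnc and 4.16 in siNC (0.81), and ATR itself had 5.32 in siLnc and 4.86 in siNC (0.46). The fork protection genes had a median of 0.52 over 4 genes, all above 0 and 0 at 2-fold, with CLSPN at 0.61 and TIPIN at 0.55. The mean signals of CLSPN and WDHD1 lay below background on both arrays. With the brightest probe set of each gene the median of this list was 0.83. That median includes CLSPN at 1.02 and WDHD1 at 1.12, neither with a probe set at or above background. Over the 2 genes read at or above background the median was 0.47.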
